A study of Homo sapiens with 30 samples.

Results

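The clustered protocadherin genes were followed through 3 RNA-seq experiments in 5637 cells, a human bladder carcinoma cell line. Members were taken by symbol as the PCDHA, PCDHB and PCDHG genes of the 3 clusters on chromosome 5, with the pseudogene PCDHA14 left out, which gave 53 genes (15 alpha, 16 beta and 22 gamma). All 53 were found in all 3 count tables, which list 60612 genes (knockout) and 56303 genes each (overexpression and knockdown). In GRCh38 the alpha cluster spans chr5:140786136-141012347, the beta cluster chr5:141051135-141249365 and the gamma cluster chr5:141330571-141512981, and all 53 genes lie on the plus strand (GENCODE annotation).

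Clustered protocadherins are cadherin-type adhesion proteins of the cell surface, best known from neurons, where each cell switches on a small set of them and like sets recognise each other. The alpha and gamma genes each have a large first exon of their own with its own promoter, which codes for the outer part of the protein, and it is spliced to short last exons that all genes of the cluster share. The beta genes have no such common exons. Promoter choice is known to run through CTCF and cohesin loops between promoters and distant enhancers, and unused promoters are held by DNA methylation and SMCHD1.

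Each experiment had 3 libraries per group. The knockout experiment compared cells of genotype RBPMS-KO (KO1 and KO2) with WT groups of the same number (WT1 and WT2), and the study describes the knockout cells as grown from single clones, so a trait of 1 clone and loss of RBPMS cannot be told apart. The overexpression experiment compared cells with isoform ANKRD10-1 or ANKRD10-2 with cells that carried the vector only, and the knockdown experiment compared siRNAs against either isoform with siNC. The study places the ANKRD10-1 overexpression and siANKRD10-2 in RBPMS knockout cells and the others in plain 5637 cells, while the labels name only 5637, so for these groups the cell background and the treatment cannot be told apart. RBPMS itself was not called lower there. Its log2 fold change was -0.19 in ANKRD10-1 against Vector (SE 0.14, adjusted p = 0.472, edgeR). In siANKRD10-2 against siNC it was 0.03 (SE 0.14, adjusted p = 0.894, edgeR). RBPMS fell by 1.44 in KO1 and by 1.09 in KO2 on the same scale. However, RBPMS was low in all groups of the overexpression and knockdown tables, controls included, as given below. These changes therefore cannot show the cell background, which was not tested. Both isoforms share 1 control group in each of these tables.

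Total counts were 44593108 to 69723937 per library in the knockout table, 31736779 to 47493499 in the overexpression table and 28511029 to 32784584 in the knockdown table. RBPMS, the targeted gene, was at 14.3 to 15.2 CPM in KO1 against 39.0 to 42.2 in WT1. CPM are counts scaled to the same library total. In KO2 RBPMS was at 18.9 to 21.3 CPM against 42.4 to 44.2 in WT2. In the overexpression table RBPMS was at 4.73 to 5.43 CPM in Vector, 3.57 to 5.06 in ANKRD10-1 and 4.76 to 6.28 in ANKRD10-2. In the knockdown table it was at 4.53 to 5.87 CPM in siNC, 4.55 to 4.73 in siANKRD10-1 and 5.03 to 5.17 in siANKRD10-2. ANKRD10, counted over all its isoforms, was at 233 to 242 CPM in ANKRD10-1 and 184 to 205 CPM in ANKRD10-2 against 148 to 149 in Vector, and at 46.1 to 50.1 (siANKRD10-1) and 46.5 to 48.0 CPM (siANKRD10-2) against 53.8 to 58.5 in siNC. All 9 epithelial markers had counts in every group, with a summed level of 2891 to 5743 CPM. Of 6 neuronal markers, RBFOX3 and STMN2 were at 0 in all libraries of the knockout experiment, and the summed level of the list was at most 2.18 CPM there. It was 8.48 to 9.91 CPM in the overexpression and 1.95 to 3.68 CPM in the knockdown experiment.

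Promoter sequence is shown first for the beta genes, because the knockout changes centred on this cluster. RefSeq windows from 250 bases before to 50 bases after the gene start were at hand for 47 of the 53 members (13 alpha, 14 beta and 20 gamma), without PCDHA3, PCDHA13, PCDHB6, PCDHB11, PCDHGA12 and PCDHGC5. The letters CGCT, the core of the element known from protocadherin promoters, stood on either strand in 46 of the 47 windows and in 70.0% of all 35116 windows. The stretch of 10 letters held by the most beta windows, GGTGGCGCTG, stood in 12 of 14 beta windows, 0 of 13 alpha and 0 of 20 gamma windows, and in 0.276% of all windows. It was chosen on the beta windows, so its share there is a description. PCDHB1 and PCDHB14 were the beta windows without it. The stretches below (GRCh38.p14, plus strand, 60 bases each, RefSeq) come from beta genes whose counts rose or fell in the comparisons that follow, with GGTGGCGCTG in capitals. A match is a string of letters and not a measured binding site.
PCDHB5, chr5:141135160-141135219: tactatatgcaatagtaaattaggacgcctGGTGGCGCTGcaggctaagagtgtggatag
PCDHB15, chr5:141245295-141245354: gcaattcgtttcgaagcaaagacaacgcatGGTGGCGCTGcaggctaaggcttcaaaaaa
PCDHB8, chr5:141177758-141177817: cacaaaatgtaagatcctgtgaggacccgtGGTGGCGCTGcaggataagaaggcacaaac
PCDHB9, chr5:141187055-141187114: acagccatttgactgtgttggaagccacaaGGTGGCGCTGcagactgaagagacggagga
PCDHB12, chr5:141208624-141208683: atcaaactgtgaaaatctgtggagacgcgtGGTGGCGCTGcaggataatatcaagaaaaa
PCDHB10, chr5:141192280-141192339: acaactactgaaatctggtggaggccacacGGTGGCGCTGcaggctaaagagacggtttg
Genes that rose (PCDHB5 and PCDHB15 in KO1, PCDHB10 in siANKRD10-2) and genes that fell (PCDHB8, PCDHB9, PCDHB16 and PCDHB12 in KO1) carried the same 10 letters, while PCDHB14, which also fell in KO1, did not.

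Which protocadherins 5637 cells expressed was read first from the WT libraries of the knockout table. The alpha cluster was nearly silent there. PCDHA5, PCDHA7, PCDHA13 and PCDHAC2 had no count in any of the 12 libraries, and PCDHA2, PCDHA3, PCDHA6 and PCDHA8 had at most 3 in each. The highest alpha gene per length was PCDHA10, with counts of 17, 38 and 38 in WT1, 28, 4 and 21 in KO1, 4, 5 and 37 in WT2, and 15, 8 and 17 in KO2, so these groups overlapped. PCDHB1 had no count either. At 0 counts the limit is 3 counts per library, and this covers counting error only.

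PCDHGC3, a C-type gamma gene, was by far the highest member. Its counts were 3979, 4679 and 4987 in WT1, 6305, 3588 and 4941 in KO1, 5311, 3975 and 6082 in WT2, and 5063, 4972 and 5449 in KO2. Per kilobase of exon, its level was 14.5 ± 1.25 CPM in WT1 (SD, n = 3), against 2.17 ± 0.12 for PCDHGB6, the next gamma gene, and 2.14 ± 0.08 for PCDHB11, the highest beta gene. The gap between PCDHGC3 and these genes was larger than the spread over libraries, while PCDHGB6 and PCDHB11 did not differ beyond theirs on this scale. The length of PCDHGB6, 6782 bases, includes 2181 bases shared with other gamma genes, while PCDHB11 shares none. The standing of PCDHGB6 beside PCDHB11 therefore depends on the length used. PCDHGC3 also shares 2181 of its 5432 bases. How reads on these exons were divided is not given in the sources used here, and the size of its lead rests in part on that. PCDHGC3 held 63.2% to 68.7% of the gamma CPM in WT1 and 74.6% to 79.2% in KO1, with no overlap, and 61.7% to 70.5% in WT2 and 67.5% to 74.4% in KO2, which overlapped. The other gamma genes together were at 36.9 to 44.5 CPM in WT1, 25.04 to 27.8 in KO1, 35.9 to 44.2 in WT2 and 34.1 to 41.0 in KO2. Below PCDHB11 came PCDHB14 at 0.77 ± 0.10 CPM per kilobase, PCDHB10 at 0.76 ± 0.10 and PCDHB9 at 0.47 ± 0.04 in WT1, of which PCDHB14 and PCDHB10 did not differ beyond their spread.

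In KO1 the beta cluster turned from a profile led by PCDHB11 to one led by PCDHB5. Of the 53 members, 29 passed the filter on low counts (1 alpha, 11 beta and 17 gamma), and 13 of these passed an adjusted p of 0.05 in the quasi-likelihood test of edgeR. The 13 split into 2 that rose and 11 that fell. Of all genes in this comparison 36.1% were called, 17.9% higher and 18.2% lower. The members tested had a median log2 fold change of -0.81, against -0.0020 over all genes. In the beta cluster 2 of 11 rose and 6 fell (median -1.06), in the gamma cluster 0 of 17 rose and 5 fell (median -0.53), and the 1 alpha gene tested, PCDHA10, had a log2 fold change of -0.77 (adjusted p = 0.351). Where libraries are bulk cultures, more RNA per cell and more cells that express a gene cannot be told apart.

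PCDHB5 (ENSG00000113209, chr5:141135218-141138625, 3408 bases of exon) showed the largest change of any member. Counts were 19, 4 and 11 in WT1 and 656, 440 and 615 in KO1. In WT2 they were 8, 9 and 42 and in KO2 21, 27 and 34, so the 3 KO1 libraries stood above the other 9 with no overlap. Normalised counts were 592 ± 61.3 in KO1 and 11.2 ± 8.33 in WT1 (SD, n = 3). On the log2 scale this was a rise of 5.73 (SE 0.35, adjusted p = 6.35e-07, edgeR). It became the highest beta gene of KO1, at 3.11 ± 0.32 CPM per kilobase against 1.16 ± 0.15 for PCDHB11. Antisense genes are annotated over PCDHB5, as over PCDHB10, PCDHB11, PCDHB15 and PCDHB16, and whether counting used strand is not given in the sources used here.

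PCDHB15, the last gene of the cluster, rose as well in KO1. Counts were 158, 84 and 126 in KO1 against 48, 56 and 70 in WT1, and once scaled to depth the groups did not overlap. The log2 fold change was 1.16 (SE 0.25, adjusted p = 0.00336, edgeR). Between PCDHB5 and PCDHB15, each of the 9 genes tested was lower in KO1 by sign.

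The fall was deepest in the neighbours PCDHB8 and PCDHB16, and the next gene of the cluster, PCDHB9, fell with them. PCDHB8 (ENSG00000120322) had 14, 9 and 8 counts in KO1 and 42, 71 and 95 in WT1, or -2.62 as log2 fold change (SE 0.42, adjusted p = 0.000609, edgeR). PCDHB16 (ENSG00000272674) had 14, 4 and 13 against 65, 50 and 88, or -2.62 as log2 fold change (SE 0.45, adjusted p = 0.00096, edgeR). PCDHB9 (ENSG00000177839) had 49, 17 and 33 against 109, 103 and 154, or -1.82 as log2 fold change (SE 0.31, adjusted p = 0.000823, edgeR). For none of the 3 did KO1 and WT1 libraries overlap. The annotation also places other genes of the same strand over PCDHB8, PCDHB16, PCDHB9, PCDHB14 and PCDHB15, and beta genes are close copies of each other, so how their reads were split is uncertain.

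Further along the cluster PCDHB12, PCDHB14 and PCDHB11 fell in KO1. PCDHB12 had 22, 11 and 13 counts against 47, 59 and 77 in WT1 (log2 fold change -1.90, SE 0.38, adjusted p = 0.00261, edgeR). PCDHB14 had 103, 102 and 76 against 183, 230 and 223 (log2 fold change -1.06, SE 0.24, adjusted p = 0.00488, edgeR). PCDHB11, the leading beta gene of the controls, had 274, 231 and 267 against 449, 492 and 623 (log2 fold change -0.89, SE 0.14, adjusted p = 0.000496, edgeR). KO1 libraries lay below all WT1 libraries in each of the 3 genes. PCDHB10, which stands between PCDHB9 and PCDHB11, had 127, 55 and 95 against 149, 134 and 147 and was not called (adjusted p = 0.0875, edgeR).

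**Figure D1:**
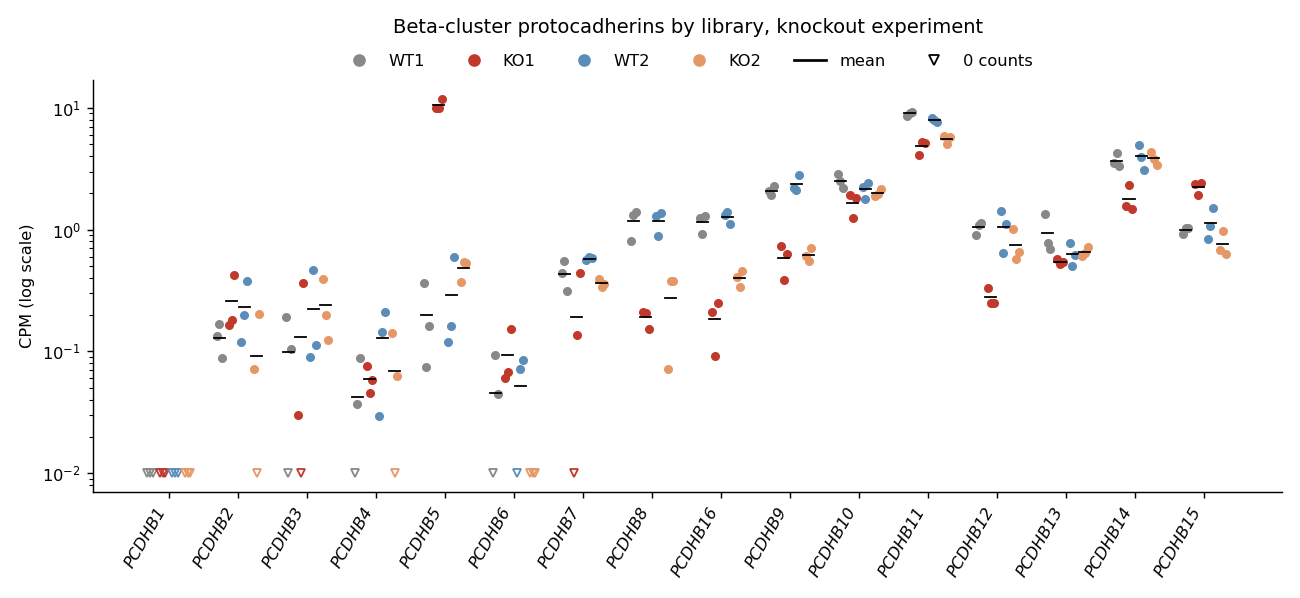
Level of the 16 beta genes in CPM (log axis) in each library of the knockout experiment, in the order of the cluster, with the mean of each group as a bar and open triangles for 0 counts. The 3 KO1 libraries of PCDHB5 stood above all others of that gene, while KO1 and KO2 both lay below their controls at PCDHB8, PCDHB16, PCDHB9 and PCDHB11.

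Summed over the cluster, these opposite changes nearly cancelled in KO1. The 16 beta genes together were at 22.3, 22.7 and 26.01 CPM in KO1 and at 23.4, 23.9 and 23.4 in WT1, so the groups overlapped. Without PCDHB5 the sum was 12.4, 12.7 and 14.2 CPM in KO1 against 23.1, 23.8 and 23.2 in WT1, with no overlap. PCDHB5 made up 44.2% to 45.6% of the beta total in KO1 and at most 1.56% in WT1. In KO2 PCDHB5 made up 2.23% to 3.51% of the beta total. That total was 16.8, 15.3 and 16.2 CPM against 24.2, 21.95 and 23.6 in WT2, again with no overlap. The smallest p that exact permutation of 3 against 3 libraries allows is 0.1, so these sums are given without a test.

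**Figure D2:**
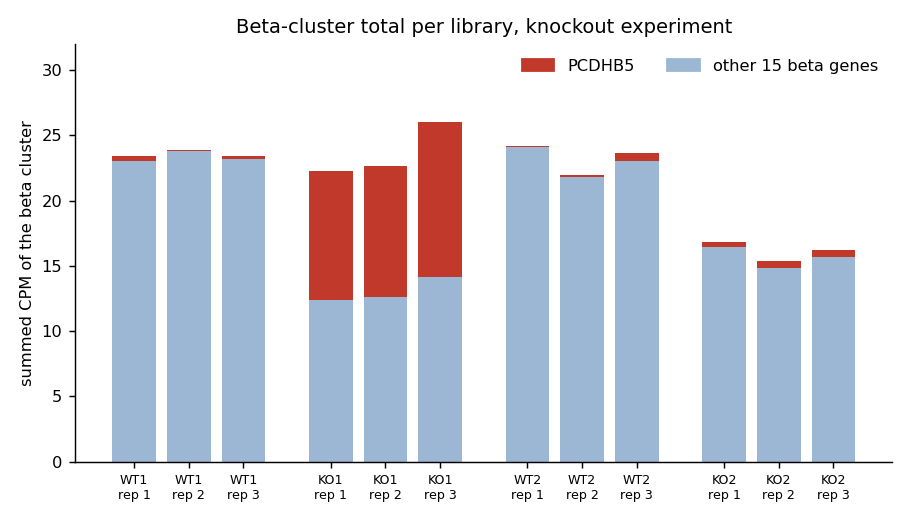
Summed level of the 16 beta genes in CPM in each library of the knockout experiment, with the part of PCDHB5 in red and the other 15 genes in blue. The KO1 bars reach 22.3 to 26.01 and the WT1 bars 23.4 to 23.9. PCDHB5 makes up 44.2% to 45.6% of the KO1 bars and at most 1.56% of the WT1 bars. The KO2 bars are lower than those of WT2.

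In KO2, 32 members were tested (2 alpha, 13 beta and 17 gamma) and 5 were called, 1 higher and 4 lower, where 38.5% of all genes tested were called, 19.3% higher and 19.2% lower. The share of members called was thus below that of all genes. Their median log2 fold change was -0.34, against -0.016 over all genes. The 4 that fell were PCDHB8, PCDHB16, PCDHB9 and PCDHB11, which are the members called lower in both knockouts. The knockouts share no library, but how many of all genes were called lower in both was not counted. PCDHB8 had 4, 19 and 24 counts in KO2 against 87, 49 and 97 in WT2 (log2 fold change -2.10, SE 0.52, adjusted p = 0.00631, edgeR). PCDHB16 had 23, 17 and 29 against 88, 78 and 79 (log2 fold change -1.66, SE 0.33, adjusted p = 0.00169, edgeR). PCDHB9 had 34, 28 and 45 against 149, 118 and 200 (log2 fold change -1.94, SE 0.26, adjusted p = 9.97e-05, edgeR). All KO2 libraries lay below all WT2 libraries in these genes. PCDHB11 had 326, 254 and 371 against 552, 443 and 539, or -0.52 as log2 fold change (SE 0.12, adjusted p = 0.00541, edgeR), with no overlap after scaling to depth. Of the 28 members tested in both knockouts, 18 were lower in both by sign, 5 were higher in both and 5 had opposite signs. Signs over all genes were not counted either, so these numbers describe the members only.

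Outside the beta cluster, PCDHGC3 was called higher in KO2, with 5545 ± 445 normalised counts against 4784 ± 442 in WT2 (SD, n = 3; log2 fold change 0.21, SE 0.07, adjusted p = 0.0329, edgeR). The groups overlapped, and leaving out KO2 replicate 2 gave an adjusted p of 0.159, and the call was also lost without KO2 replicate 1, WT2 replicate 1 or WT2 replicate 2. It was lost as well without the filter on low counts (adjusted p = 0.115) and with all groups of the table in 1 fit (0.0515, edgeR). In KO1 the same gene had 0.20 as log2 fold change (SE 0.08, adjusted p = 0.0636, edgeR).

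The 5 gamma genes called in KO1 were all lower. PCDHGA4 had 27, 12 and 17 counts in KO1 against 84, 72 and 143 in WT1 (log2 fold change -2.31, SE 0.34, adjusted p = 0.000355, edgeR). PCDHGA6 had 95, 58 and 46 against 172, 147 and 183 (log2 fold change -1.26, SE 0.25, adjusted p = 0.00245, edgeR). KO1 and WT1 did not overlap in either. PCDHGB6, the second gamma gene by level, was at 598 ± 25.4 normalised counts against 824 ± 44.2 (log2 fold change -0.46, SE 0.09, adjusted p = 0.00262, edgeR). PCDHGA10 was at 99.1 ± 42.3 against 196 ± 54.3 (log2 fold change -0.99, SE 0.33, adjusted p = 0.0388, edgeR), with overlapping libraries, and its adjusted p was 0.15 without WT1 replicate 1, with the call also lost without KO1 replicate 1, KO1 replicate 3 or WT1 replicate 2, with the replicate number as a block (0.0553) and without the filter on low counts (0.0692).

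PCDHGA8 was called lower in KO1, with 8, 7 and 12 counts against 30, 69 and 57 in WT1 (log2 fold change -2.40, SE 0.51, adjusted p = 0.0035, edgeR). It also differed between the 2 control groups, with 3, 7 and 12 counts in WT2, a level like that of KO1. It was the single member called of 32 tested in WT2 against WT1 (log2 fold change -2.96, SE 0.56, adjusted p = 0.0241, edgeR), where 1.23% of all genes were called, and this call was lost without WT1 replicate 2 (adjusted p = 0.144) or 3, or WT2 replicate 1 or 2. DESeq2 gave PCDHGA8 no adjusted p here, because its filter on low means removed the gene (unadjusted p = 7.89e-07), and called PCDHGA6 instead (log2 fold change -0.80, adjusted p = 0.0408). With both WT groups as control the fall of PCDHGA8 in KO1 was no longer called (adjusted p = 0.171, edgeR), nor with all groups of the table in 1 fit (0.0733). PCDHGA1 shows how far single libraries could differ in this table, with 195, 22 and 14 counts in KO1 (adjusted p = 0.183 against WT1). Counts of single gamma genes rest on how reads on the shared exons were divided, which the sources used here do not give.

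The knockouts were compared directly through the difference of their effects. Of 34 members tested, 4 were called, where 23.3% of all genes were. PCDHB5 rose more in KO1 than in KO2 by 5.04 on the log2 scale (SE 0.70, adjusted p = 5.82e-05, edgeR), and in KO2 its own log2 fold change was 0.70 (SE 0.62, adjusted p = 0.417). PCDHB15 differed by 1.76 (SE 0.40, adjusted p = 0.00408, edgeR), with -0.59 as log2 fold change (SE 0.35, adjusted p = 0.208) in KO2. PCDHB14 differed by -0.99 (SE 0.31, adjusted p = 0.0315, edgeR) and PCDHGB6 by -0.41 (SE 0.14, adjusted p = 0.041, edgeR). Both of these calls were lost when single libraries were left out, up to an adjusted p of 0.0823 for PCDHB14 (without WT1 replicate 2) and 0.113 for PCDHGB6 (without KO2 replicate 2). For PCDHB8, PCDHB16, PCDHB9 and PCDHB11 no difference between the knockouts was called (adjusted p = 0.657 for PCDHB8, 0.207 for PCDHB16, 0.881 for PCDHB9 and 0.133 for PCDHB11, edgeR).

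**Figure D3:**
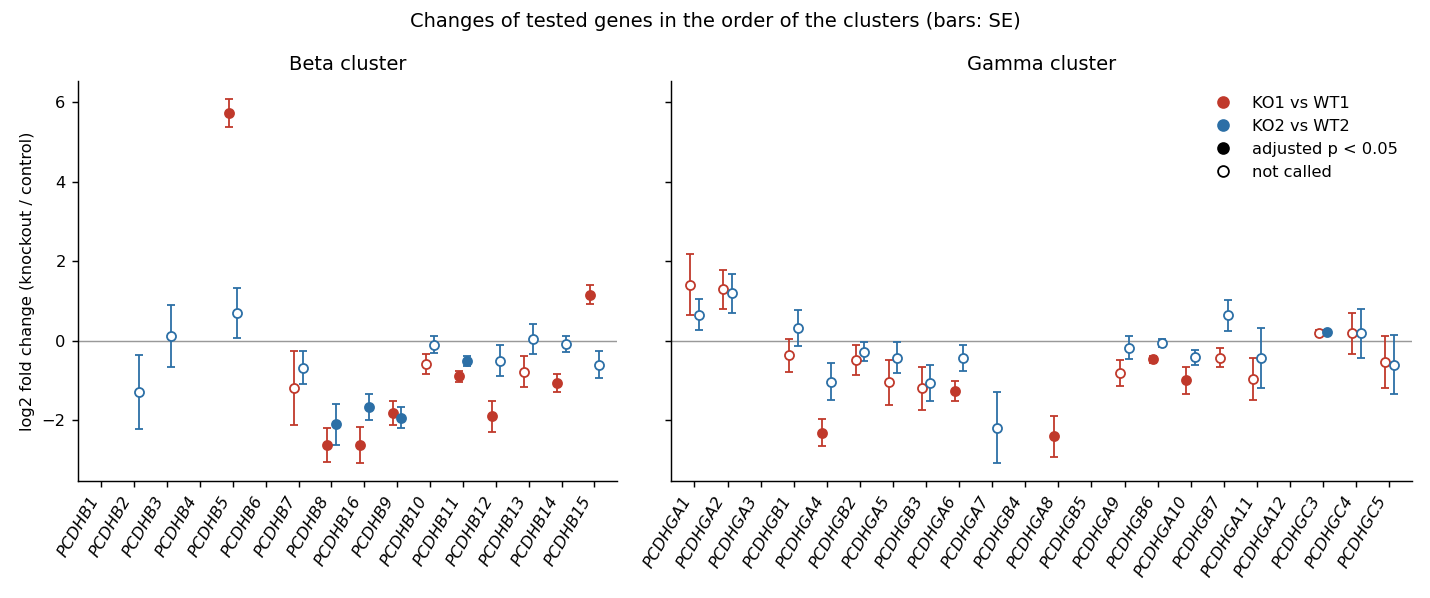
Log2 fold change of each tested beta and gamma gene in the order of its cluster, KO1 against WT1 in red and KO2 against WT2 in blue, with SE as bars and filled points for an adjusted p under 0.05. PCDHB5 is the red point at 5.73, and the run from PCDHB8 to PCDHB9 is lower in both knockouts, at -1.66 or below.

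Other genes of the pathway were read from lists. Of all genes 17.9% were called higher and 18.2% lower in KO1, and 19.3% and 19.2% in KO2. Of 15 genes of silencing and DNA methylation, 0 rose and 9 fell in KO1 and 1 rose and 8 fell in KO2. DNMT3A, a DNA methyltransferase that sets new marks, fell by 1.20 in KO1 (SE 0.05, adjusted p = 6.95e-08) and by 0.73 in KO2 (SE 0.05, adjusted p = 6.2e-07, edgeR, log2 scale). Also named by the rule were UHRF1 in KO1 (log2 fold change -0.59) and TET1 in KO2 (-0.43). Of 14 genes of promoter choice and chromatin loops, 0 rose and 3 fell in KO1 and 1 rose and 6 fell in KO2, with STAG1 (-0.27) and REST (-0.24) in KO1 and RCOR1 (0.20) and PDS5B (-0.17) in KO2 as the largest log2 changes. CTCF, named here after its values were seen, had a log2 fold change of 0.04 in KO1 (adjusted p = 0.536) and -0.03 in KO2 (adjusted p = 0.67, edgeR). Of 15 intracellular partners and sheddases, 0 rose and 7 fell in KO1 and 2 rose and 5 fell in KO2, led by CYFIP2 (-3.00) and WASF1 (-0.39) in KO1 and PTK2B (0.68) and MARCKS (-0.36) in KO2.

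Genes that flank the clusters on 5q31 gave a comparison by position. Of 24 tested, 3 rose and 2 fell in KO1 (median log2 fold change 0.11). In KO2, 4 rose and 0 fell (median 0.0004). Whether position had a part in the protocadherin changes was not tested. Of 12 protocadherin genes outside the clusters 5 were tested, and 1 rose and 2 fell in KO1 and 1 rose and 3 fell in KO2. PCDH10 fell by 2.14 in KO1 (SE 0.29, adjusted p = 0.000199) and by 2.85 in KO2 (SE 0.33, adjusted p = 2.41e-05, edgeR, log2 scale). PCDH18 fell by 4.20 in KO2 (SE 0.29, adjusted p = 3.02e-07, edgeR), and PCDH7 by 0.54 in KO1 (SE 0.06, adjusted p = 8.09e-05, edgeR). Among cell type markers in KO1 and KO2, 3 and 3 of 9 epithelial genes rose and 2 and 3 fell, 0 of 2 neuronal genes tested were called in each, and of fibroblast and smooth muscle genes 1 of 4 rose and 1 fell in KO1 and 0 of 3 rose and 1 fell in KO2. The summed level of these 6 genes was 36.7 to 43.9 CPM in KO1 against 53.7 to 56.8 in WT1, with no overlap, and 53.6 to 55.6 in KO2 against 55.5 to 58.1 in WT2. Their part in the protocadherin changes was not tested.

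The overexpression and knockdown tables had to be read in another way, because reads on the shared last exons were counted there for every gene of a cluster. In Vector replicate 1 the 22 gamma genes had from 285 to 582 counts, and 16 of them lay within 5% of the lowest. In siNC replicate 1 they had from 491 to 1008, and again 16 lay within 5% of the lowest. In WT1 replicate 1 of the knockout table, by contrast, gamma genes ran from 0 to 3979 counts. The exons shared by the gamma genes cover at least 2181 bases and those shared by the alpha genes at least 2866 bases. Counts were also even more often than odd in these tables (57.3% to 64.7% of values from 10 to 200, against 50.9% to 52.1% in the knockout table). The lowest count of a cluster in a library was therefore taken as its shared count, and what a gene had above it as the count of its own exons. This split was chosen after the counts were seen. Fits on split counts were run only by edgeR on all libraries of a comparison. They were not repeated with single libraries left out or under the other settings.

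**Figure D4:**
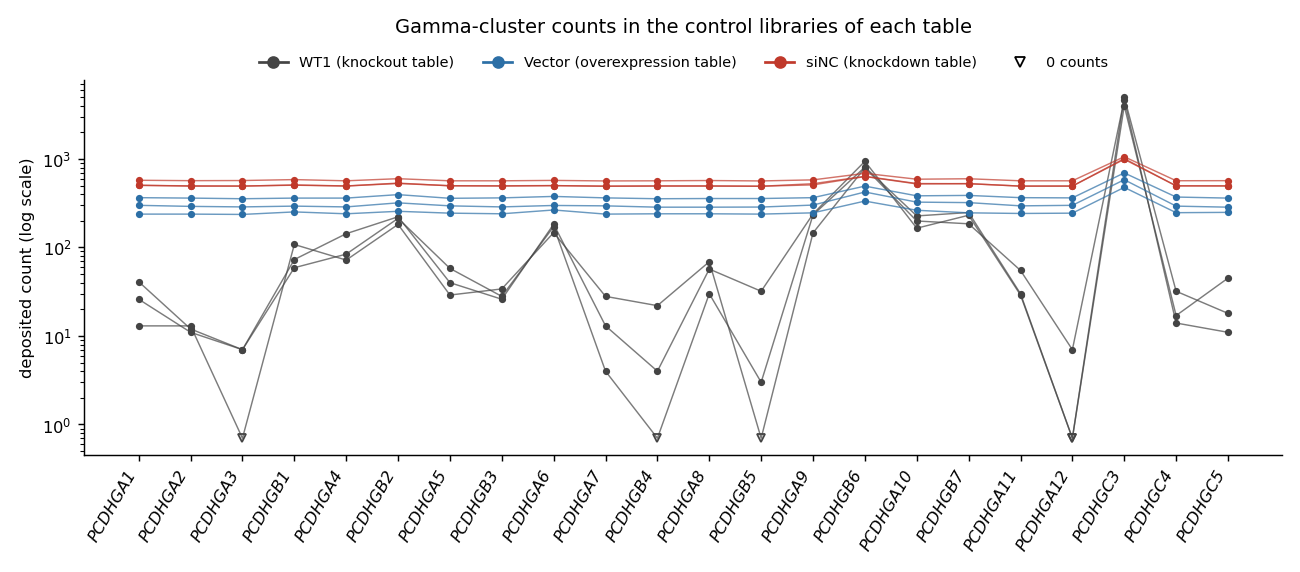
Deposited count (log axis) of the 22 gamma genes in the order of the cluster for the 3 control libraries of each table, with open triangles for 0 counts. The Vector and siNC lines lie close to 1 level and stand out most at PCDHGB6 and PCDHGC3, while the WT1 lines range from 0 to 4987.

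On own exons the same 2 gamma genes led as in the knockout table. PCDHGC3 held 49.1% ± 1.69 of the gamma total per kilobase of own exon in Vector and 62.2% ± 1.83 in siNC (SD, n = 3), followed by PCDHGB6 with 14.8% ± 0.78 and 11.9% ± 0.64. In the alpha cluster the shared count was only 6 to 12 in Vector and 4 to 8 in siNC. By what lay above the shared count per length, the highest alpha gene was PCDHA11 in the overexpression table, with 14, 8 and 18 counts (shared ones included) in Vector, 10, 2 and 2 in ANKRD10-1 and 12, 2 and 24 in ANKRD10-2. In the knockdown table it was PCDHA7, with 8, 8 and 8 counts in siNC, 4, 10 and 10 in siANKRD10-1 and 6, 6 and 12 in siANKRD10-2, counted in the same way. Scaled to depth, PCDHA11 was higher in all Vector libraries (0.224 to 0.372 CPM) than in ANKRD10-1 (0.0435 to 0.214 CPM), at a few counts each, and the other groups of PCDHA11 and those of PCDHA7 overlapped. Levels are not compared between tables, which were made separately.

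In ANKRD10-2 overexpression the shared gamma exons fell, and on their own exons PCDHGC3 and PCDHGB6 fell. By the deposited counts 22 of 34 members tested were called, 0 higher and 22 lower, where 19.9% of all genes were called and 9.25% called lower. The 22 are the 22 gamma genes, with log2 fold changes from -0.58 to -0.50, and for most of them it is 1 shared count read 22 times. They are PCDHGA1 to PCDHGA12, PCDHGB1 to PCDHGB7, PCDHGC3, PCDHGC4 and PCDHGC5. The shared count itself was 285, 236 and 355 in Vector and 173, 125 and 226 in ANKRD10-2, or -0.53 as log2 fold change (SE 0.13, adjusted p = 0.0099, edgeR). With it taken off, 2 of 16 members tested were called, both lower, and the other 5 gamma genes tested were not. This share was below the 19.9% of all genes called by the deposited counts. The share of all genes in the split fit was not counted. PCDHGC3 had 297, 241 and 340 counts on its own exons in Vector and 153, 150 and 185 in ANKRD10-2 (log2 fold change -0.62, SE 0.11, adjusted p = 0.0017, edgeR). PCDHGB6 had 138, 98 and 138 against 75, 61 and 86 (log2 fold change -0.53, SE 0.16, adjusted p = 0.0276, edgeR). In CPM neither gene's ANKRD10-2 libraries overlapped with Vector.

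For ANKRD10-1 against Vector, 0 of 34 members were called by edgeR, and 22 had an unadjusted p under 0.05, the shared count again repeated among them, while DESeq2 called 0. Of all genes 6.31% were called. The shared gamma count had -0.27 as log2 fold change (SE 0.11, adjusted p = 0.147, edgeR). ANKRD10-2 against ANKRD10-1 gave 1 call of 32 members, PCDHGC3 (log2 fold change -0.38, SE 0.10, adjusted p = 0.0283, edgeR), where 7.26% of all genes were called. On own exons PCDHGC3 had 357, 262 and 224 counts in ANKRD10-1 (log2 fold change -0.50, SE 0.14, adjusted p = 0.0292, edgeR). Without ANKRD10-1 replicate 1, the highest of them, its log2 fold change by deposited counts was -0.27 (adjusted p = 0.2), and the call was also lost without ANKRD10-1 replicate 2, ANKRD10-2 replicate 1 or ANKRD10-2 replicate 2.

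Beta genes gave 0 calls of 9 tested in each of the 3 overexpression comparisons. PCDHB10 was the highest per length there, with 229, 209 and 287 counts in Vector, 281, 220 and 212 in ANKRD10-1 and 173, 125 and 210 in ANKRD10-2, and its log2 fold change was -0.31 in ANKRD10-2 (SE 0.12, adjusted p = 0.0999 with the shared count taken off, edgeR). The beta total was 16.2 to 16.5 CPM in Vector, 14.5 to 15.4 in ANKRD10-1 and 12.02 to 14.8 in ANKRD10-2, given without a test. PCDHB5, the gene that rose in KO1, had at most 8 counts in any library of this table.

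After siANKRD10-2, PCDHB10 rose and the shared gamma exons fell. By the deposited counts 22 of 31 members tested were called, 1 higher and 21 lower, where 36.3% of all genes were called and 18.7% called lower. The 21 are all gamma genes but PCDHGB6, again largely 1 shared count, which was 491, 564 and 492 in siNC and 313, 378 and 446 in siANKRD10-2 (log2 fold change -0.35, SE 0.10, adjusted p = 0.0055, edgeR). The fall depended on single libraries, since without siANKRD10-2 replicate 1, the lowest, 2 members were called, and without siNC replicate 2, the highest, 8 were. The own exons of the gamma genes, summed per kilobase, were at 7.40 to 8.04 CPM in siNC and 6.96 to 8.27 in siANKRD10-2. These ranges overlapped, so the fall of the shared count was not seen in this sum. Why own and shared exons differed was not tested.

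PCDHB10 (ENSG00000120324, chr5:141192353-141195642, 3290 bases of exon) had 128, 97 and 103 counts in siNC, 104, 92 and 108 in siANKRD10-1 and 188, 245 and 245 in siANKRD10-2. The siANKRD10-2 libraries stood above the other 6 with no overlap. The log2 fold change was 1.15 against siNC (SE 0.14, adjusted p = 4.81e-07, edgeR) and 1.23 against siANKRD10-1 (SE 0.14, adjusted p = 4.01e-07, edgeR). At 2.27 ± 0.32 CPM per kilobase it was the highest beta gene of siANKRD10-2, as it was of siNC at 1.03 ± 0.14 (SD, n = 3). The other 8 beta genes tested were not called. The beta total was 10.9 to 12.2 CPM in siNC, 11.8 to 13.2 in siANKRD10-1 and 16.3 to 18.8 in siANKRD10-2.

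On its own exons PCDHGB6 moved against the shared count. It had 145, 123 and 140 own counts in siNC, 134, 134 and 122 in siANKRD10-1 and 150, 165 and 229 in siANKRD10-2. This was 0.51 as log2 fold change against siNC (SE 0.14, adjusted p = 0.0064, edgeR) and 0.54 against siANKRD10-1 (SE 0.14, adjusted p = 0.0043, edgeR). By the deposited count, shared exons included, its change against siNC was -0.12 (adjusted p = 0.287), so the sign turned with the split. PCDHGC3 had 517, 494 and 498 own counts in siNC and 419, 441 and 475 in siANKRD10-2, with -0.08 as log2 fold change (SE 0.08, adjusted p = 0.487, edgeR). With the shared count taken off, PCDHB10 and PCDHGB6 were the only members called in siANKRD10-2 against siNC and against siANKRD10-1, both higher, of 17 and 18 tested. These shares were below the 36.3% and 37% of all genes called by the deposited counts. The share of all genes in the split fits was not counted.

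For siANKRD10-1 against siNC, 0 of 32 members were called by edgeR, 0 had an unadjusted p under 0.05 and DESeq2 called 0, where 10.6% of all genes were called. In siANKRD10-2 against siANKRD10-1, 21 of 31 members were called by the deposited counts, PCDHB10 higher and 20 gamma genes lower (all but PCDHGB6 and PCDHGC3), where 37% of all genes were called and 18.8% called lower. Without siANKRD10-1 replicate 1 only 2 members were called, and without siANKRD10-2 replicate 1 only 1. The shared gamma count had a log2 fold change of -0.30 in this comparison (SE 0.10, adjusted p = 0.0171, edgeR).

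The lists stand beside the shares of all genes called in each direction. These were 3.5% higher and 2.81% lower in ANKRD10-1, and 10.7% and 9.25% in ANKRD10-2. They were 5.08% and 5.52% in siANKRD10-1, and 17.6% and 18.7% in siANKRD10-2. Of the lists, genes of silencing and DNA methylation had 0 rises and 0 falls in ANKRD10-1, 0 and 3 in ANKRD10-2, 0 and 2 in siANKRD10-1 and 3 and 3 in siANKRD10-2, of 15. Genes of promoter choice and loops had 0 rises and 1 fall, 1 and 1, 0 and 3, and 2 and 4 in the same order, of 14, with SMC1A, a cohesin subunit, at a log2 fold change of -0.31 in ANKRD10-2 and 0.52 in siANKRD10-2. The partners and sheddases had 0 rises and 2 falls, 3 and 2, 2 and 1, and 4 and 3, of 15. The 5q31 neighbours had 2 rises and 0 falls, 4 and 2, 2 and 2, and 8 and 4, of 22 tested. Protocadherins outside the clusters had 0 rises and 0 falls of 6 tested, 0 and 1 of 6, 0 and 2 of 4, and 0 and 1 of 3, with PCDH7 at -1.08 in siANKRD10-1 and PCDH1 at -0.53 in siANKRD10-2.

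Epithelial markers changed in all 4 of these groups, where the shares of all genes called are those given above. In ANKRD10-1, ANKRD10-2, siANKRD10-1 and siANKRD10-2 they had 4 rises and 0 falls, 6 and 0, 0 and 4, and 0 and 7, of 9. Their summed level was 3379 to 3495 CPM in siANKRD10-2 against 5419 to 5743 in siNC, and 3305 to 3708 in ANKRD10-2 against 2891 to 3062 in Vector. Neuronal markers had 1 rise and 0 falls of 4 tested, 1 and 0 of 4, 0 and 0 of 3, and 1 and 0 of 3, and fibroblast and smooth muscle markers had 0 and 0 of 6, 0 and 0 of 6, 0 and 0 of 5, and 1 and 1 of 5. Their part in the changes of PCDHB10 and the gamma genes was not tested.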

How the data were processed

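Poly(A) RNA-seq counts of 30 libraries (10 groups of 3) were used. The authors deposited whole-number read counts per gene without normalization. The paper names Cutadapt, Trimmomatic, HISAT2 and StringTie, and the processing notes name Trimmomatic 0.36, featureCounts of Subread 1.5.1 and GRCh38. The annotation release is not given in the sources used here, but deposited lengths equal GENCODE v29 exon lengths for all 53 members. Reads of a fragment or of shared exons counted more than once inflate counts without adding molecules. Groups came from the labels, and no column was left unassigned.

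Low genes were removed with filterByExpr (at least 10 counts, total of at least 15) and counts were TMM-normalized and tested by the quasi-likelihood test of edgeR 4.0.16 in R 4.3.3 on the groups compared, with Benjamini-Hochberg adjustment over all genes and a prior count of 0.125. DESeq2 1.42.0 was an alternative. CPM use TMM-scaled totals of the table. Scripts were tested on simulated data. The labels do not say whether replicates are separate cultures, so p-values measure the spread between these libraries. Members, lists and tests were chosen with earlier results of these data known. Every member called is named, library counts are given for members called whose log2 change was 1 or more in size and for the highest per length, and at most 2 genes per list with a mean of at least 50 counts. Intervals cover counting error only.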

Additional observations from a re-analysis of the deposited data

Results flagged for a closer look

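4 of 34 members tested responded differently to the 2 knockouts, by edgeR's test of the difference of the effects (KO1 minus KO2, log2 scale). Of all genes 23.3% were called there, so the share of members called was below that of all genes. PCDHB5 differed by 5.04, with 440 to 656 counts in KO1 against 21 to 34 in KO2 and 4 to 42 in the 6 WT libraries. PCDHB15 differed by 1.76. PCDHB14 differed by -0.99 and PCDHGB6 by -0.41, and both of these calls depended on single libraries. Clone and sgRNA go together in these groups and cannot be told apart.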

How the results depend on the processing

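The members called in the knockout and the PCDHB10 call kept their direction under DESeq2, RLE normalization, no filter on low counts, all groups in 1 fit and both WT groups as control. Not all kept their call, as PCDHGC3 in KO2 and PCDHGA8 and PCDHGA10 in KO1 lost it under some of these settings. Over all values of called members under alternatives, 902 kept direction and side of the threshold, 133 lost the call and 5 turned sign. The 5 are gamma genes with the shared exon count taken off: in siANKRD10-2 against siNC PCDHGB1 at 0.26, and against siANKRD10-1 PCDHGA1 at 0.27, PCDHGB1 at 1.28, PCDHGB2 at 0.32 and PCDHGA9 at 0.065, none of them called. Taking it off left 2 calls each in ANKRD10-2 against Vector, siANKRD10-2 against siNC and siANKRD10-2 against siANKRD10-1. Without the filter, 2 members were called in the difference of the knockouts (DESeq2 called 6, against 4) and 0 in WT2 against WT1, where all groups in 1 fit also gave 0.

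With single libraries left out, calls ranged from 12 to 14 in KO1, 4 to 7 in KO2, 2 to 5 in their difference (2 without KO1 replicate 3, WT1 replicate 2 or WT2 replicate 3), 0 to 1 in WT2 against WT1 (0 without WT1 replicate 2 or 3, or WT2 replicate 1 or 2) and in ANKRD10-2 against ANKRD10-1 (0 without replicate 1 or 2 of either group), with 22 throughout in ANKRD10-2 against Vector, 2 to 23 in siANKRD10-2 against siNC (8 without siNC replicate 2, 2 without siANKRD10-2 replicate 1) and 1 to 22 against siANKRD10-1 (2 without siANKRD10-1 replicate 1, 1 without siANKRD10-2 replicate 1). The cause was not tested. Same-numbered libraries did not deviate together (correlations of at most 0.082), so they were not treated as pairs. With the replicate block, 12 members were called in KO1 (13 without it, PCDHGA10 being lost) and 20 in siANKRD10-2 against siANKRD10-1 (21 without it), and the other counts did not change. Depth limits the alpha genes and PCDHB1, at or near 0.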
